A study of Mus musculus with 2 samples.

Results

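The genes described here are 36 genes of the lysosome, picked by symbol from the 27998 genes counted in whole mouse lung: 9 cathepsins, 3 membrane proteins, 5 glycosidases, 6 proteins of lipid handling, 2 further enzymes, 9 subunits of the vacuolar proton pump and 2 transcription factors. All 36 were found in both tables. Lysosomes are acid compartments in which hydrolases break down material that a cell has engulfed or recycled. The proton pump, a membrane-embedded V0 ring driven by a V1 head that uses ATP, supplies the acid, and the factors Tfeb and Tfe3 switch on many lysosomal genes together. In the lung this machinery serves alveolar macrophages, which clear particles and surfactant, and alveolar type 2 (AT2) cells, which store surfactant in lysosome-related lamellar bodies.

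The data were single-cell RNA counts from 2 libraries of unsorted lung cells, labelled control and fibrosis, each from 1 male C57Bl/6J mouse aged 3 months. Mice received 100 µg of TiO2 or of crocidolite, a fibrous asbestos, into the trachea and were taken 14 days later. Which particle each mouse received is not given per library, so the label words are used. Filters left 8025 and 6945 cells (control and fibrosis), with a median of 3811 and 4340 unique molecular identifiers (UMIs, counted transcripts), and 89 barcodes occurred in both libraries. There was no replicate mouse, so no test between the libraries was possible, and every 95% interval covers counting error only.

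Cells were assigned to classes from lists of marker genes, and each class name stands for cells carrying those markers. Alveolar macrophages were split at 0.1% of a cell's UMIs from Mmp12, a macrophage metalloelastase. Mmp12-low cells numbered 690 (control) and 829 (fibrosis), and Mmp12-high cells numbered 3 and 181. The control library therefore gave no Mmp12-high level, and that class is described in the fibrosis library alone. Of the 693 and 1010 alveolar macrophages, 100% and 99.4% also lay in clusters that carried the name. The clusters were named from the same marker lists, so this overlap is not independent of the gate. None of the 12 alveolar macrophage markers was at 0 in these classes. The gate used these markers, and none was at 0 in AT2 cells either, so this does not test the name. Surfactant protein C (Sftpc) reached 193445 UMIs in every 1000000 of control AT2 cells. Sftpc is itself a marker by which AT2 cells were gated, so its level does not test that name either.

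Members were summed over the cells of a class and given as CPM, the UMIs found in every 1000000 of that class. The 3′ chemistry counts transcript ends, so these levels do not scale with gene length. A difference was called where it reached 1.5-fold, its interval excluded 1 and both sums together held at least 20 UMIs. The share of all genes called by the same rule is given for each comparison. Counts under alternative settings have no such share, apart from interstitial macrophages below the Mmp12 threshold.

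Before the values, the promoters are shown, because many lysosomal genes are known as targets of a shared element. Tfeb and Tfe3 bind a palindrome built on the E-box CACGTG, and 29 of the 36 genes had a promoter in the RefSeq table (GRCm38.p6, 250 bases before and 50 after the annotated start). The letters searched on both strands were CACGTG, its flanked forms TCACGTG and TCACGTGA, which contain it, and the form of TCACGTGA with G before and C after it. TCACGTG was present in 11 of 29 members (37.9%), in 11 of 65 other lysosomal genes (16.9%) and in 4.29% of the 27025 genes of the table. TCACGTGA was present in 7 members (24.1%) and in 1.12% of all genes. The core CACGTG alone was present in 12 members (41.4%) against 8.09%, the added gene being Ctsl. The longest form was in none of the 29 and in 0.370% of all genes. A match describes letters and not binding.

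The 5 upstream sequences below were chosen for how they carry the motif beside the results that follow, each 250 bases long, 5′ to 3′ along the gene, with the E-box and its matching flanks in capitals. Gla (chrX:134601006-134601255, minus strand) and Atp6v1a (chr16:44139260-44139509, minus strand) were higher in Mmp12-high cells and hold the fully flanked form. Ctsd (chr7:142387828-142388077, minus strand) holds 2 sites and differed little between Mmp12-low and Mmp12-high alveolar macrophages. Lamp1 (chr8:13158911-13159160, plus strand) holds 4 sites, the most of any member. Ctsk (chr3:95498960-95499209, plus strand) holds none and differed between the libraries. Upstream here refers to the RefSeq start. By the GENCODE positions also used here, the Atp6v1a stretch lies inside the gene, and those of Gla and Ctsd overlap their genes.
Gla: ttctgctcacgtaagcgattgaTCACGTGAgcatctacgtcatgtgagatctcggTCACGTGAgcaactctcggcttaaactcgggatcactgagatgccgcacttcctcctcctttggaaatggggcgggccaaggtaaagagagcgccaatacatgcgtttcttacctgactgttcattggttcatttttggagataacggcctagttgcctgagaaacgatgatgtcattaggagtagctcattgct
Atp6v1a: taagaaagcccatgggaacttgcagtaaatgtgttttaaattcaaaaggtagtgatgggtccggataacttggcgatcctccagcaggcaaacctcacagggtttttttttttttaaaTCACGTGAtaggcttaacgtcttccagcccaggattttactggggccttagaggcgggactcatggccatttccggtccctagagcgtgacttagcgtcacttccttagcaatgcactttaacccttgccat
Ctsd: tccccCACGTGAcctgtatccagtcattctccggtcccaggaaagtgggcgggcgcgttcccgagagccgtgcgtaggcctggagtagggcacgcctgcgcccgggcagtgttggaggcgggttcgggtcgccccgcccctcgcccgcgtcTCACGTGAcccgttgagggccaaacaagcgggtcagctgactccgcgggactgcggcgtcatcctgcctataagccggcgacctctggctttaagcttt
Lamp1: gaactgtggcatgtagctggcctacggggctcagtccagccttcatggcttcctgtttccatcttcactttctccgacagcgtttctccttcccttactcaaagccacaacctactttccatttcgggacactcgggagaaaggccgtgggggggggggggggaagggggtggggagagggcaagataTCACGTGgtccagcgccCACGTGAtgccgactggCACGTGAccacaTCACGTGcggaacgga
Ctsk: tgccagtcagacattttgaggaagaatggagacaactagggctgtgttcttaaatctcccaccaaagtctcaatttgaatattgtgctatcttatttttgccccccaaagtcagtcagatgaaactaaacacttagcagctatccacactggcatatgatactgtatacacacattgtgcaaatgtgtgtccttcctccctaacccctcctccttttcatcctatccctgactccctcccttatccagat

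In Gla the cores began at -227 and -194, counted in bases from the annotated start, and in Atp6v1a at -131. In Ctsd the fully flanked site began at -98 and the partly flanked one at -245. In Lamp1 the 4 cores began at -61, -45, -28 and -15. Fully flanked sites next to the start were also found in Ctsa, the carboxypeptidase that protects other hydrolases, and in the pump genes Atp6v0d1 and Atp6v0e. The remaining holders of TCACGTG were Mcoln1, with a fully flanked core at -45, and Glb1, Gaa and Atp6v0b, with partly flanked ones.

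**Figure D1:**
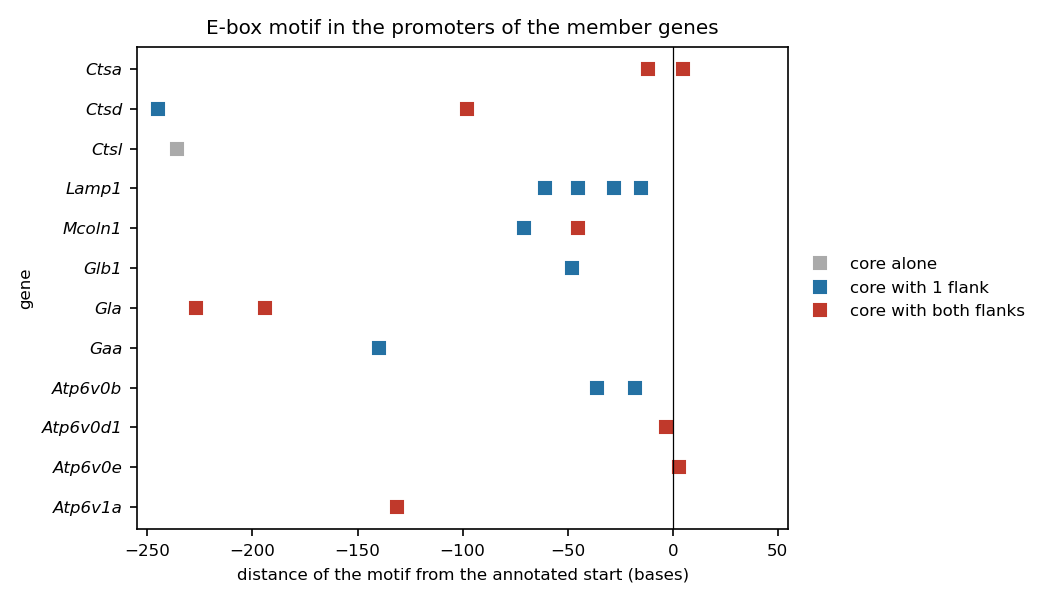
Each square is a site of the E-box core in a member's promoter, placed by its distance from the annotated start in bases, and its colour gives how many flanking letters match. The 4 sites of Lamp1 crowd before the start, while those of Gla (-227 and -194) and Ctsl (-236) lie far upstream.

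The first comparison asked which lung cells carry these transcripts. Macrophages carried the most. The 36 members together made 2.05% of the UMIs of control and 2.22% of those of fibrosis Mmp12-low alveolar macrophages. In Mmp12-high cells of the fibrosis library they made 3.36%, the highest of the classes with at least 50 cells. Interstitial macrophages followed with 1.56% and 2.09%, then classical monocytes with 1.24% and 1.11%. AT2 cells had 0.873% and 1.04%, and T cells were lowest with 0.219% and 0.225%. Single cells of the low and high alveolar classes overlapped: the 5th to 95th percentile ran from 1.33% to 3.43% in Mmp12-low and from 1.81% to 6.48% in Mmp12-high fibrosis cells.

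By gene, 22 of 36 members had their highest level in a macrophage class in the control library and 26 of 36 in the fibrosis library. The fibrosis count includes the Mmp12-high class, for which the control library gave no level. The counts therefore do not rest on the same classes, and their difference is not a measure of change. The share of all genes that were highest in a macrophage class is not given. Intervals overlap for many first and second places, so the count describes the order and not a set of separate levels. In control alveolar macrophages the aspartic protease Ctsd stood at 3527 CPM (95% interval 3466 to 3589), against 1056 CPM in NK cells, its next class, and 518 CPM in interstitial macrophages. The collagen-cleaving protease Ctsk, known from osteoclasts, reached 407 CPM there against 74.8 CPM in fibroblasts, its next class. Control interstitial macrophages held the highest Ctsb (2232 CPM), Ctsc (1039 CPM), which activates granule proteases, and Hexa (744 CPM), the enzyme lacking in Tay-Sachs disease.

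Other cells led for a minority of members. AT2 cells led for Npc2, the soluble carrier that hands cholesterol to Npc1, at 4581 CPM (control) and 5886 CPM (fibrosis), against 615 and 629 CPM in Mmp12-low alveolar macrophages. Npc1 itself stood at 136 CPM in control AT2 cells, also its first class, against 132 CPM in alveolar macrophages, with overlapping intervals. Plasmacytoid dendritic cells led for Ctsh (1299 and 1129 CPM) and for the progranulin gene Grn (1096 and 899 CPM), from 38 and 31 cells. Type 1 dendritic cells led for the palmitoyl-thioesterase Ppt1 at 768 and 718 CPM. In the control library they also led for the saposin precursor Psap, at 3513 CPM (3374 to 3656). Mmp12-low alveolar macrophages came second there for Psap, at 3054 CPM (2997 to 3112). Fibroblasts led for Ctsl in the control library at 951 CPM, and for the glycogen-cleaving Gaa in both at 101 and 92.2 CPM, from 46 and 58 cells. AT1 cells led for the acid ceramidase gene Asah1 at 409 and 264 CPM, from 29 and 47 cells. In the fibrosis library the AT1 interval (205 to 334) overlapped that of Mmp12-low alveolar macrophages (248 CPM). Nonclassical monocytes led for Tfeb at 48.8 and 41.0 CPM.

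**Figure D2:**
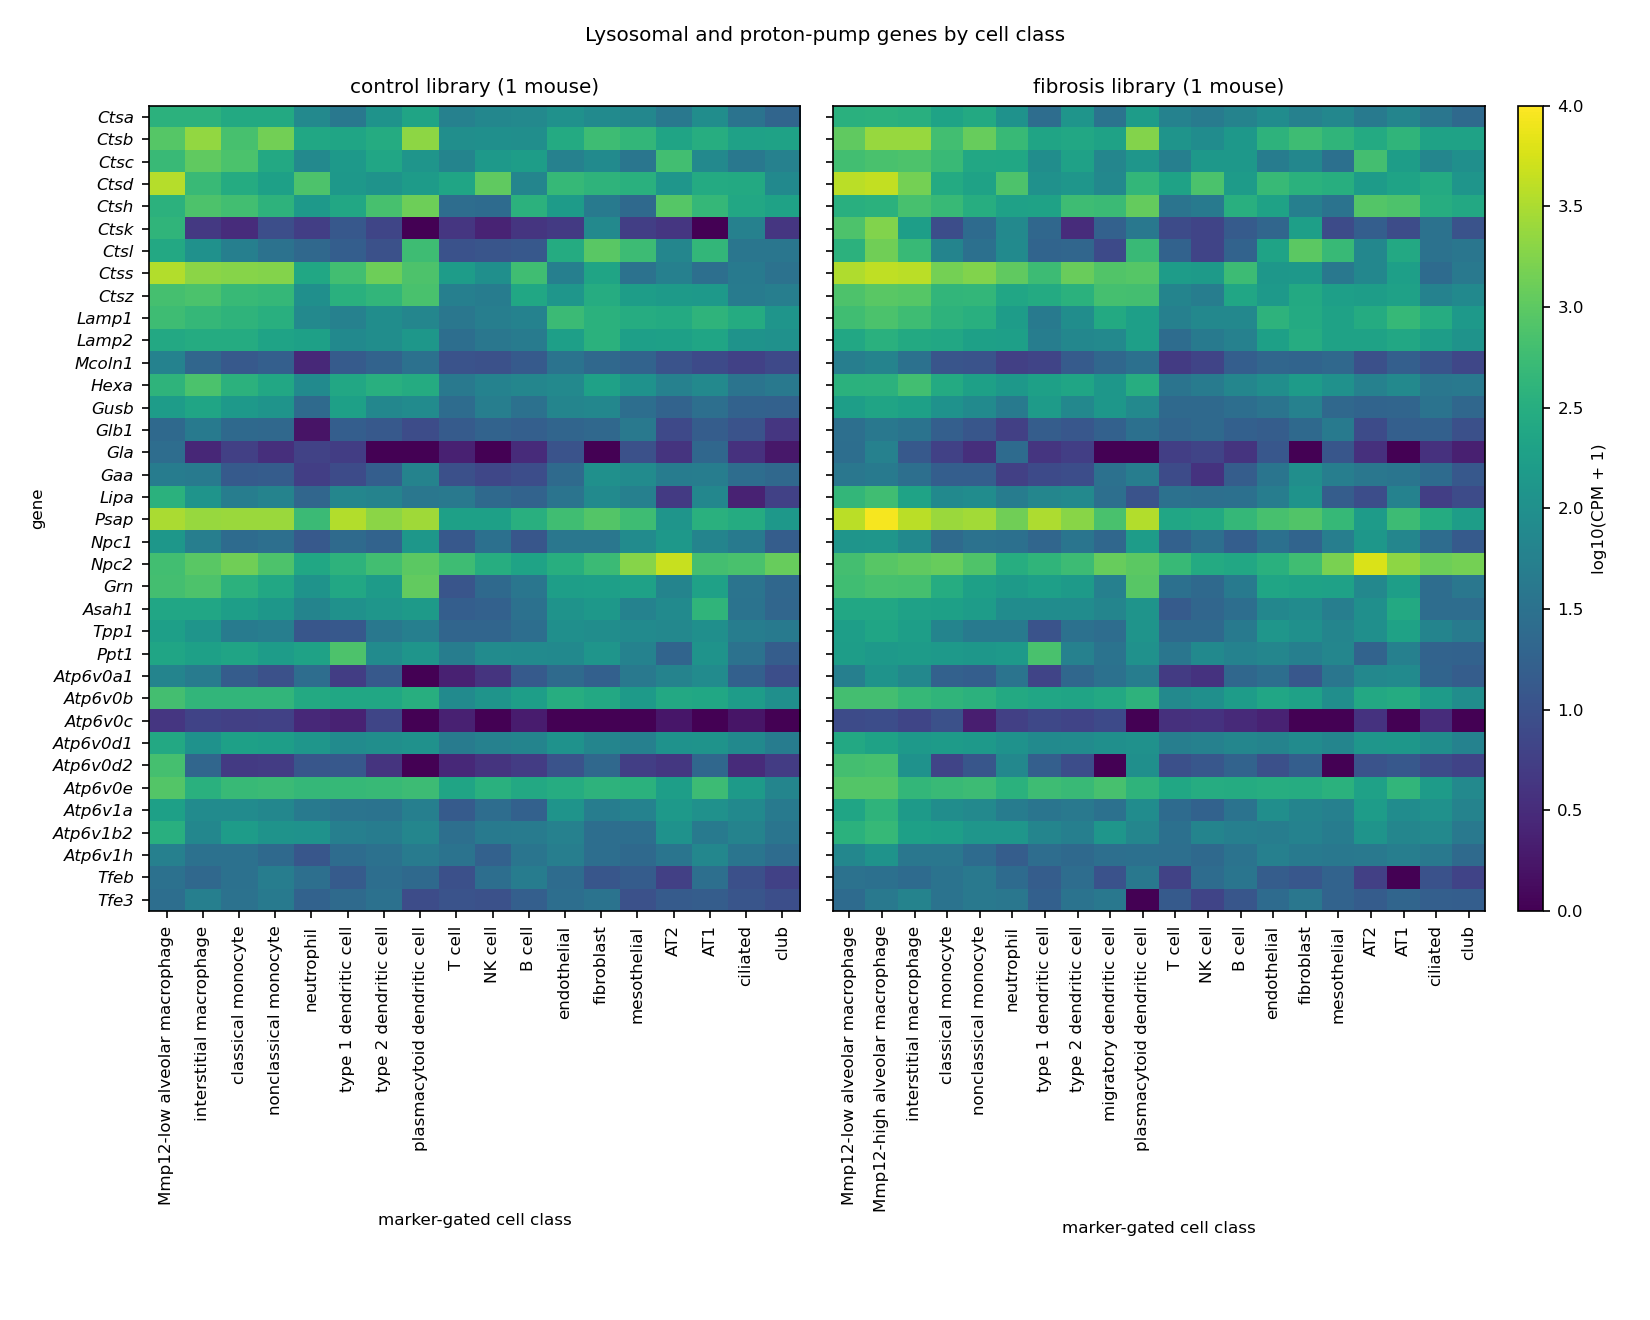
Colour gives log10(CPM + 1) of each member (rows) in each marker-gated class (columns) of the control library (left) and the fibrosis library (right), 1 mouse each. The macrophage columns are brightest for most genes, while Npc2 is brightest in AT2 cells (4581 and 5886 CPM) and Ppt1 in type 1 dendritic cells (768 and 718 CPM).

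The pump showed a subunit choice that separated alveolar macrophages from the rest. Atp6v0d1 and Atp6v0d2 encode alternative forms of the d subunit that links the V0 ring to the V1 head, and the d2 form is known from osteoclasts. Atp6v0d2 (chr4:19876841-19922605, minus strand) stood at 654 CPM in control and 635 CPM in fibrosis Mmp12-low alveolar macrophages and at 696 CPM in Mmp12-high cells. In control AT2 cells it stood at 3.46 CPM and in control classical monocytes at 3.79 CPM. As a share of the UMIs of both d genes, d2 made 71.9% (70.4 to 73.5) in control and 71.1% (69.7 to 72.5) in fibrosis Mmp12-low cells. It made 77.7% (74.99 to 80.2) in Mmp12-high cells. In classical monocytes the share was 2.00% and 3.39%, and in AT2 cells 3.08% and 7.13%. The alveolar macrophage intervals do not overlap those of any other class in the control library, while the plasmacytoid one of the fibrosis library (25.7 to 70.2) meets that of Mmp12-low cells. In interstitial macrophages of the fibrosis library the share was 69.9% (62.3 to 76.7) in the 58 cells with at least 0.1% Mmp12 and 18.9% (13.5 to 25.3) in the other 298, against 15.5% in the control library. B cells, which should lack the d2 form, gave 6.20% and 20.7% from 8 and 18 d2 UMIs.

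**Figure D3:**
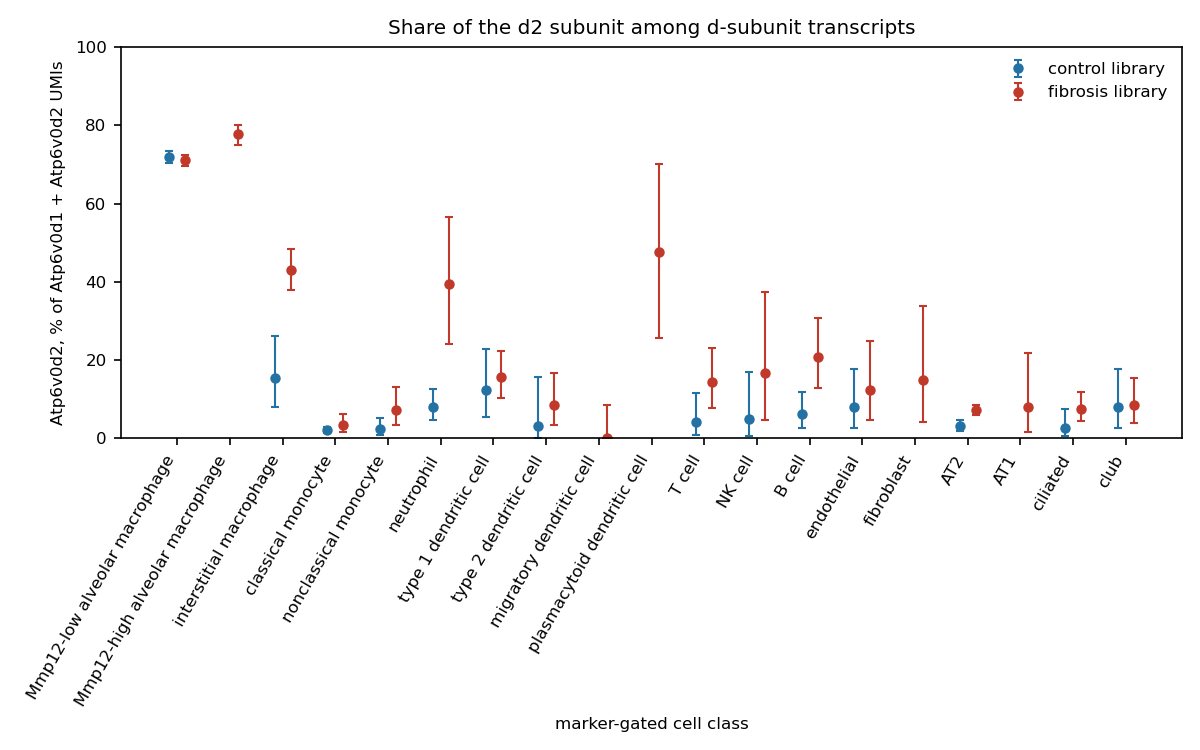
Points give the share of Atp6v0d2 among the UMIs of Atp6v0d1 and Atp6v0d2 together, in percent, per class and library, with exact (Clopper-Pearson) 95% intervals, for classes with at least 20 such UMIs. Alveolar macrophages sit between 71.1% and 77.7%, and interstitial macrophages stand at 15.5% (control) and 43.0% (fibrosis), the 298 fibrosis cells below 0.1% Mmp12 at 18.9%.

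The second comparison asked whether Mmp12-low alveolar macrophages differed between the libraries. Almost all members stood at about the same level. Of 36 members, 2 were higher in the fibrosis library (5.56%) and none lower, where 3.83% of the 10179 genes tested were higher and 3.76% lower. The median log2 ratio of members was 0.03, and that of all genes tested was -0.05. The share of members called higher is thus near that of all genes.

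Ctsk (chr3:95499256-95509362, plus strand) was the clearest of these, at 407 CPM (control) and 754 CPM (fibrosis), a log2 ratio of 0.89 (0.80 to 0.98) from 1453 and 3519 UMIs. After thinning every cell to 1000 UMIs, which left out none, 27.4% of control and 36.3% of fibrosis Mmp12-low cells held a Ctsk UMI (60.4% and 73.5% unthinned), at median depths of 4949 and 5210 UMIs. B cells, which should lack it, gave 0.338% and 0.831% thinned (0.676% and 1.39% unthinned), at median depths of 1841 and 2529 UMIs. Ctsk was also higher in other cells of the fibrosis library: its median log2 ratio over 8 other classes was 1.68. Ratios there partly start from low levels, with control Ctsk at 2.23 CPM in classical monocytes and 3.59 CPM in interstitial macrophages. In ciliated cells Ctsk was lower in the fibrosis library. With the median of 1.68 subtracted, the ratio in Mmp12-low cells turned to -0.79. The part of Ctsk transcripts from other cells in the result was not tested. The neighbouring gene Ctss, 17423 bases further along chromosome 3 and coding for a protease of antigen presentation, stood at 3440 and 3293 CPM.

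Atp6v0c, the ring-forming pump subunit, was the other call, from 12 control and 34 fibrosis UMIs (3.36 and 7.29 CPM, log2 ratio 1.12, 0.13 to 2.20). Its count is uncertain, since the annotation holds 2 processed pseudogenes of it, and it was no longer called with 1 marker more or with clusters in place of the gate. Ctsl, a cysteine protease of broad range, missed the fold at 254 and 374 CPM (0.56, 0.44 to 0.68). It passed with clusters in place of the gate (0.65), with ratios centred on the median of all genes (0.61) and with Mmp12 at 0.2% (0.63). Psap, the precursor of the saposins that present lipids to glycosidases, went from 3054 to 3865 CPM (0.34, 0.31 to 0.37). Ppt1 had the lowest ratio, 220 against 167 CPM (-0.40, -0.54 to -0.25). The other members lay between -0.40 and 0.37, the pump subunits without Atp6v0c between -0.25 and 0.37. Tfeb (30.5 and 30.9 CPM) and Tfe3 (26.9 and 24.2 CPM) had intervals that include no change.

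Of the 71 other lysosomal genes tested in the same cells, 4 were higher and 1 was lower, where 3.83% and 3.76% of all genes tested were. The higher ones were Lgmn (167 to 313 CPM, 0.90), an asparagine-specific protease that processes cathepsins, the tetraspanin Cd63 (446 to 723 CPM, 0.70), the acid phosphatase Acp5 (164 to 253 CPM, 0.63) and the mannose-6-phosphate receptor Igf2r (1.68 to 5.79 CPM, 1.78). The mTOR partner Rptor was lower, at 11.2 against 6.43 CPM (-0.80). Of 14 regulators tested none was higher. The summed alveolar macrophage markers stood at 21799 CPM (control) and 40314 CPM (fibrosis), and their part in these ratios was not tested.

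The third comparison set Mmp12-high against Mmp12-low alveolar macrophages within the fibrosis library, so that both came from 1 mouse and 1 run. Here 9 of 36 members were higher in Mmp12-high cells (25%) and none was lower, where 5.95% of the 9637 genes tested were higher and 7.15% lower. The median log2 ratio of members was 0.31 against -0.09 for all genes, and 30 of 36 lay above 0. The genes called spanned proteases, a glycosidase, the saposin precursor, pump subunits and Tfe3.

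Among cathepsins 3 of 9 were called. Ctsl (chr13:64359337-64370890, minus strand) had the largest ratio, 1376 CPM in Mmp12-high against 374 CPM in Mmp12-low cells (log2 1.88, 1.78 to 1.98), with 254 CPM in the control. Ctsb (chr14:63122462-63145923, plus strand), an abundant cysteine protease, stood at 2447 against 1045 CPM (1.23, 1.16 to 1.29), with 879 CPM in the control. Ctsk stood at 1767 against 754 CPM (1.23, 1.15 to 1.31), and a Ctsk UMI was found in 65.7% of thinned Mmp12-high cells. For these 3 genes the Mmp12-high level was the highest of any class in that library, for Ctsl above the 967 CPM of fibroblasts. For Ctsb the interval overlapped that of interstitial macrophages (2394 CPM). The 58 interstitial macrophages with at least 0.1% Mmp12 stood higher for Ctsb (3913 CPM) and Ctsl (1643 CPM), and lower for Ctsk (624 CPM). The other 6 cathepsins lay between 0.06 and 0.35, Ctsd at 4260 against 3793 CPM (0.17) among them. Ctsh, at 355 against 337 CPM (0.07), turned to -0.64 after thinning and was then called lower.

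Psap (chr10:60277627-60302597, plus strand) stood at 8805 CPM in Mmp12-high and 3865 CPM in Mmp12-low cells (1.19, 1.15 to 1.22). It was the only call among 6 lipid-handling members. Npc2 (0.51, 0.41 to 0.62), the cholesteryl ester hydrolase Lipa (0.39, 0.26 to 0.52) and Grn (0.23, 0.11 to 0.34) had smaller positive ratios, while Npc1 (0.09) and Asah1 (-0.01) had intervals that include no change. Among 5 glycosidases, Gla (chrX:134588149-134601125, minus strand), the α-galactosidase lacking in Fabry disease, was called at 55.3 against 26.6 CPM (1.06, 0.60 to 1.51, 63 and 124 UMIs). The β-glucuronidase gene Gusb followed at 0.35 (0.14 to 0.56), and Hexa stood at 371 against 363 CPM (0.03). The β-galactosidase Glb1 (0.48) and Gaa (0.20) rested on 50 or fewer Mmp12-high UMIs each, with intervals that include no change.

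In the pump, 3 of 9 subunits were called. Atp6v0a1 (chr11:101009452-101063719, plus strand), a form of the large V0 subunit, stood at 113 against 52.9 CPM (1.10, 0.78 to 1.41). Atp6v1a (chr16:44085402-44139705, minus strand), the catalytic subunit of the head, stood at 404 against 224 CPM (0.85, 0.69 to 1.01). Atp6v1h (chr1:5070018-5162529, plus strand), a regulatory subunit of the head, stood at 111 against 71.1 CPM (0.65, 0.34 to 0.95), a call lost after thinning (0.68). All 3 V1 members had positive ratios, with Atp6v1b2, the non-catalytic partner of Atp6v1a, at 0.45 (0.31 to 0.60). The V0 ratios were uneven, at -0.04 (-0.16 to 0.07) for Atp6v0b, 0.13 (0.02 to 0.25) for Atp6v0d2 and -0.37 (-0.58 to -0.16) for Atp6v0d1. Atp6v0e stood at 859 and 861 CPM.

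Of the 2 factors, Tfe3 (chrX:7762560-7775202, plus strand) was called at 40.4 against 24.2 CPM (0.74, 0.21 to 1.24), from 46 and 113 UMIs. It was not called with 1 marker more (0.49), after thinning (0.56) or with Mmp12 at 0.05% (0.50). Tfeb stood at 29.0 against 30.9 CPM (-0.09, -0.68 to 0.46). Among membrane proteins, Lamp2 (0.45, 0.28 to 0.62), Lamp1 (0.28, 0.17 to 0.39) and the calcium channel gene Mcoln1 (0.30, -0.11 to 0.69) were not called. The peptidase Tpp1 (0.39, 0.18 to 0.59) and Ppt1 (-0.27, -0.52 to -0.02) were not called either.

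**Figure D4:**
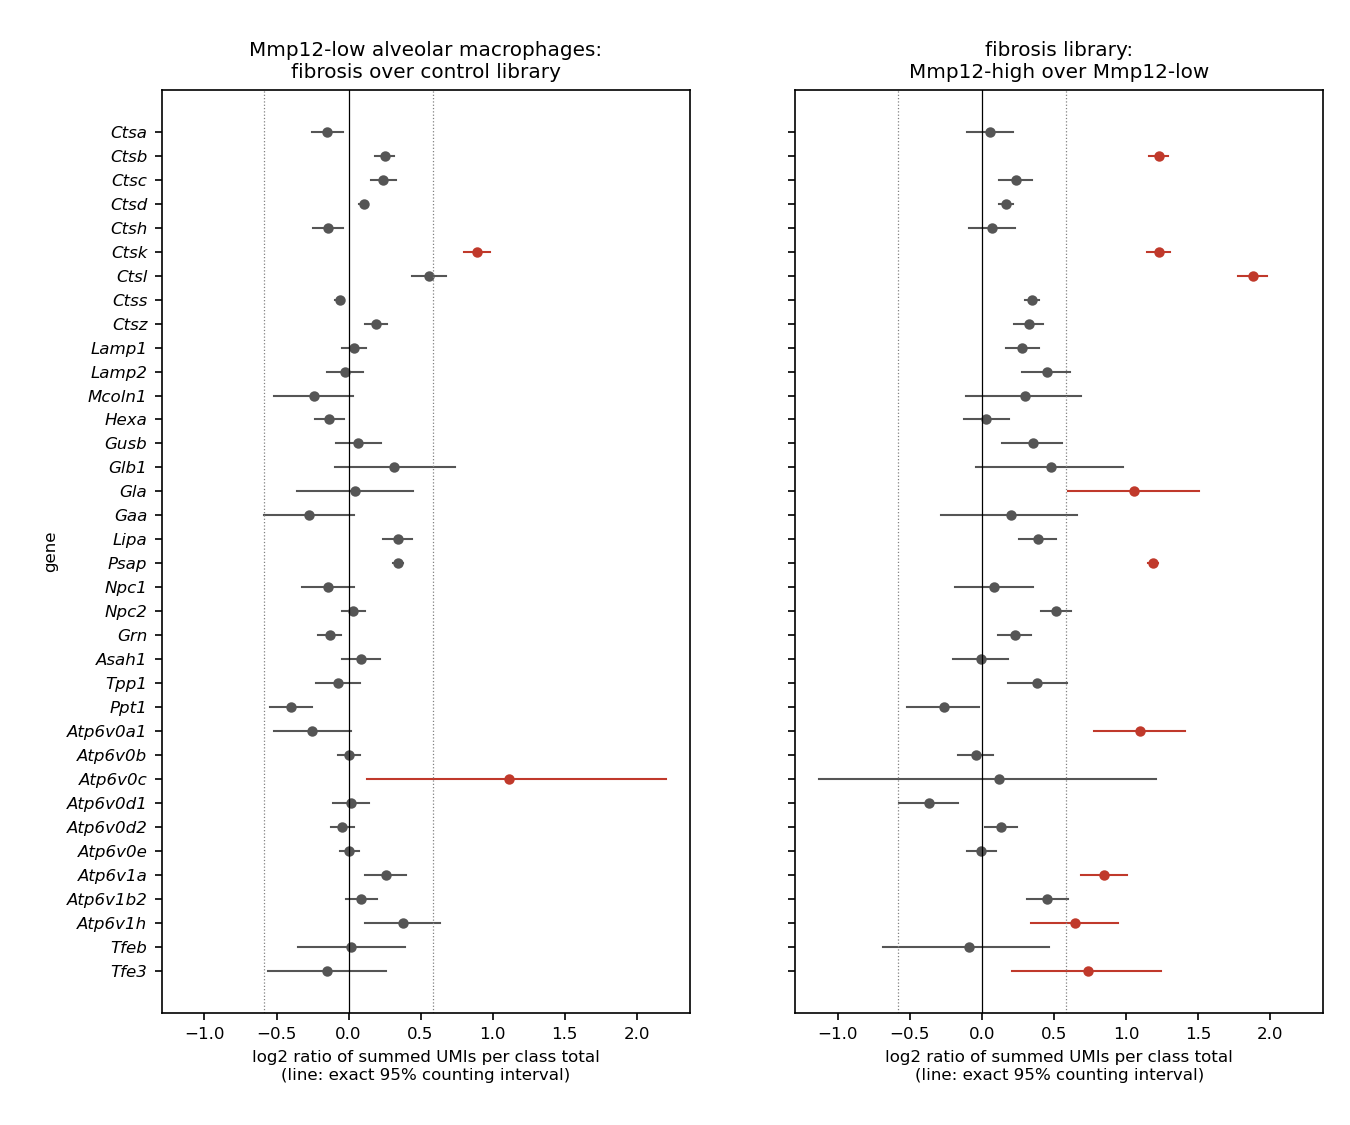
Points are log2 ratios of each member's class-scaled UMIs and lines their exact 95% counting intervals, for fibrosis over control Mmp12-low alveolar macrophages (left) and Mmp12-high over Mmp12-low cells of the fibrosis library (right). Red marks a call at 1.5-fold (dotted lines), 2 members on the left and 9 on the right, and no member was called lower.

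Calls were found with and without the promoter motif. Of 11 tested members with TCACGTG, 2 were higher in Mmp12-high cells, Gla and Atp6v1a, with a median log2 ratio of 0.20. Of 18 with a promoter but without it, 5 were higher, with a median of 0.37, where 5.95% of all genes tested were higher. In Mmp12-low cells between the libraries, 0 of 11 and 2 of 18 were higher, where 3.83% of all genes tested were.

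From the fixed list of other lysosomal genes, 8 of 70 tested were higher in Mmp12-high cells and 1 was lower, where 5.95% and 7.15% of all genes tested were. The largest ratios were those of Igf2r (5.79 to 29.0 CPM, 2.32), Lgmn (313 to 989 CPM, 1.66), the channel Mcoln2 (5.57 to 12.3 CPM, 1.14) and the folliculin partner Fnip2 (29.8 to 63.2 CPM, 1.09). Sort1, a sorting receptor, was lower at 135 against 210 CPM (-0.64). The median over these 70 genes was 0.05. Neither of the 2 tested cathepsin inhibitors of the 6 listed was called. Beside these results the alveolar macrophage markers summed to 40314 CPM in Mmp12-low and 80849 CPM in Mmp12-high cells, the interstitial markers to 109.7 and 254 CPM, and the classical monocyte markers to 559 and 597 CPM. Their part in the ratios was not tested.

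The members' share was also set against the amount of Mmp12. Among fibrosis alveolar macrophages, the 623 cells with no Mmp12 UMI held 2.11% of UMIs from the members, close to the 2.05% of the 681 control cells without it. The next groups, of 157 cells (up to 0.05% Mmp12) and 49 cells (0.05 to 0.1%), held 2.43% and 2.76%. Just above the threshold, 54 cells (0.1 to 0.2%) held 2.65%, with no step at the threshold. The 61 cells at 0.2 to 0.5% and the 66 cells above held 3.30% and 4.13%.

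Ctsl stood at 289, 515, 825, 655, 986 and 2535 CPM over these groups, from the cells without Mmp12 to those with the most. Ctsk gave 638, 1001, 1184, 1034, 1604 and 2686 CPM, and Psap 3598, 4157, 5750, 6110, 7485 and 12987 CPM. Ctsl, Ctsk and Psap thus stood highest in the top Mmp12 group. Ctsd (3565 to 4787 CPM) was highest at 0.2 to 0.5% and Atp6v0d2 (623 to 719 CPM) spanned little. In control cells without Mmp12, Ctsk was at 410 CPM against 638 CPM in fibrosis cells without it, while Ctsl was at 253 against 289 CPM. All cells of the fibrosis library came from 1 mouse, and their depth also varied, with medians from 4540 to 6803 UMIs over the groups.

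**Figure D5:**
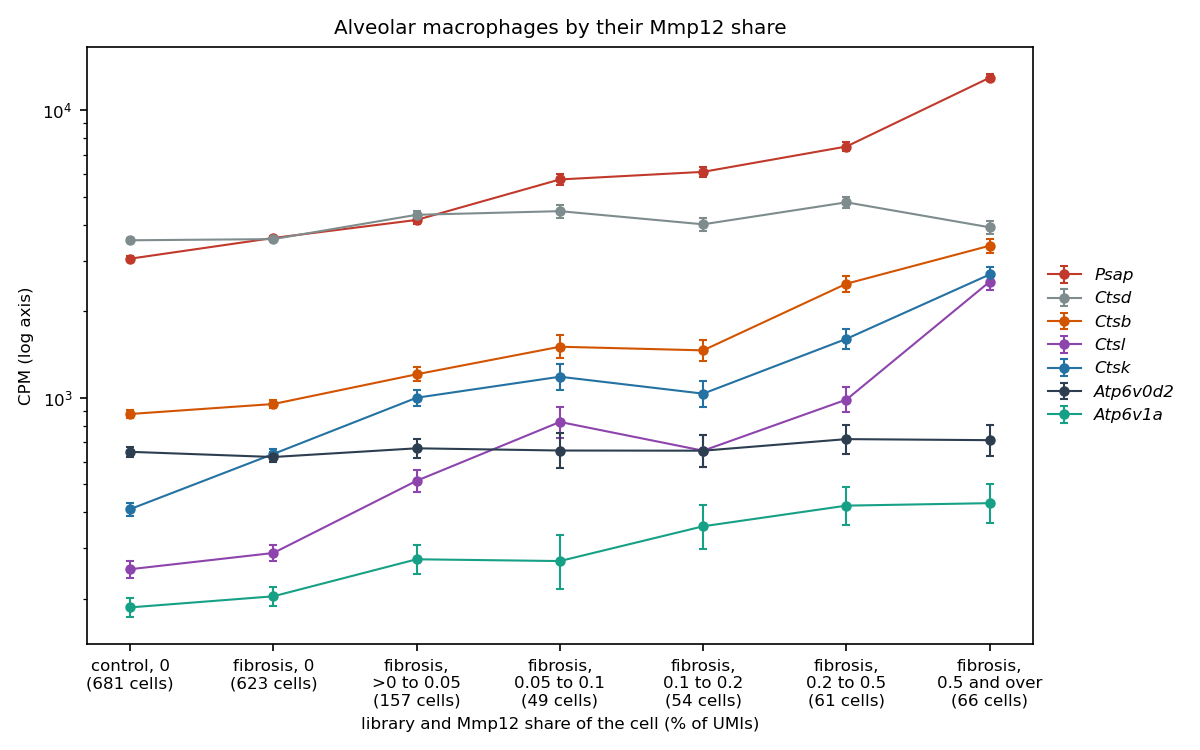
Lines give the CPM (log axis) of 7 members in alveolar macrophages grouped by the Mmp12 share of the cell in percent, control cells without Mmp12 first, with exact Poisson 95% intervals. Ctsl reaches 2535 CPM and Psap 12987 CPM in the top group, while Atp6v0d2 stays between 623 and 719 CPM in the fibrosis groups.

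Taken without the split, all alveolar macrophages gave 4 members higher in the fibrosis library: Ctsk (410 to 953 CPM, log2 1.22), Ctsl (266 to 571 CPM, 1.10), Psap (3102 to 4834 CPM, 0.64) and Atp6v0c. In that comparison 5.12% of genes were higher and 4.77% lower. By the same settings Ctsl and Psap were not called when Mmp12-high cells were left out.

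In interstitial macrophages, 154 control and 356 fibrosis cells, 11 of 34 tested members were higher in the fibrosis library (32.4%) and none lower, where 5.81% of 7266 genes were higher and 6.33% lower. Gla and Atp6v0c had too few UMIs. The calls were Ctsk (3.59 to 175 CPM, 5.61, 3.74 to 8.66, from 2 and 242 UMIs), Atp6v0d2 (19.8 to 109 CPM, 2.47), Ctsl (106 to 496 CPM, 2.22), Ctsd (518 to 1473 CPM, 1.51) and Atp6v1b2 (70.1 to 185 CPM, 1.40). Smaller calls were Ctss (0.93), Atp6v1a (0.86), Lipa (0.82), Atp6v0a1 (0.69), Psap (0.67) and Npc1 (0.65). Ctsb, at 2232 and 2394 CPM, had a ratio of 0.10 (0.01 to 0.20).

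Most of these calls rested on 58 of the 356 fibrosis cells, those with at least 0.1% Mmp12. In the 58 cells Ctsk stood at 624 CPM, Ctsl at 1643 CPM, Ctsd at 3721 CPM and Atp6v0d2 at 358 CPM, and the members made 3.55% of UMIs. In the other 298 cells the same genes stood at 37.8, 145, 785 and 33.1 CPM, and the members made 1.64%, against 1.56% in control cells below the threshold. With cells at or above the threshold left out of both libraries, an alternative chosen after the data were seen, 3 members were higher, where 4.35% of 6720 genes tested were: Ctsk (3.35, 1.40 to 6.45), Atp6v1b2 (1.14, 0.62 to 1.69) and Npc1 (0.67, 0.03 to 1.35). Of the calls lost this way, Ctsd (0.57, 0.37 to 0.77), Ctss (0.41, 0.31 to 0.52) and Psap (0.19, 0.09 to 0.28) kept intervals above 0. Atp6v0d2 kept a ratio of 0.70 (-0.31 to 1.83), from 35 fibrosis and 11 control UMIs. Ctsl, Lipa, Atp6v0a1 and Atp6v1a had positive ratios with intervals that include no change. With clusters in place of the gate 2 members were higher, Ctsk and Atp6v1b2, and the share of all genes is not given for that setting. The Atp6v0a1, Npc1 and Psap calls were also lost with 1 marker more (0.63, 0.54 and 0.55). The 58 cells carried 13606 CPM of alveolar macrophage markers beside 10592 CPM of interstitial ones, and the 298 carried 2480 and 16726 CPM. The part of the alveolar markers in the result was not tested.

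Classical monocytes, 1720 control and 435 fibrosis cells, gave 2 members higher and 1 lower of 36, where 7.06% and 3.31% of 9904 genes were called. Lipa was higher (48.8 to 77.9 CPM, 0.68, 0.39 to 0.95), as was Ctsk from 20 and 14 UMIs (2.23 to 7.74 CPM). Ppt1 was lower (215 to 143 CPM, -0.59, -0.78 to -0.40). After subtraction of the median ratio of the other classes none of the 3 calls remained. The Ppt1 ratio, just past the fold, also missed it with clusters (-0.51), without shared barcodes (-0.58), after thinning (-0.50) and with markers present at 20% of their percentile (-0.57). The other cathepsins had ratios from -0.49 (Ctsc) to 0.27 (Ctsl).

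AT2 cells, 1071 control and 1814 fibrosis cells, gave 4 members higher of 36 and none lower, where 5.45% and 2.49% of 11911 genes were called. All 4 were low there: Ctsk (3.31 to 14.4 CPM, 2.13, 1.48 to 2.84), Atp6v0d2 (3.46 to 9.54 CPM, 1.46), Lipa (3.76 to 7.79 CPM, 1.05) and Atp6v0c (0.752 to 2.89 CPM, 1.94). B cells, which should lack the first 2, stood at 3.12 and 12.96 CPM for Ctsk and at 4.16 and 17.9 CPM for Atp6v0d2. Neither gene stood above its B cell level in AT2 cells of the same library beyond counting error. B cells held 17.7 and 28.9 CPM of Lipa and, from 2 UMIs each, 1.04 and 1.99 CPM of Atp6v0c. After subtraction of the median ratio of the other classes none of the 4 was called, and thinning also ended the Ctsk (1.17) and Atp6v0d2 (0.13) calls, as clusters did that of Lipa (0.61). Members at high levels in AT2 cells were not called: Npc2 at 4581 and 5886 CPM (0.36, 0.34 to 0.38), Ctsh at 878 and 865 CPM (-0.02), Ctsc at 617 and 642 CPM (0.06) and Lamp1 at 274 and 287 CPM (0.07).

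Neutrophils, 717 control and 75 fibrosis cells, gave 12 of 31 tested members higher in the fibrosis library and none lower, where 12.9% and 3.61% of genes were called. Per cell, the members' median share was 0.366% (control) and 0.410% (fibrosis), and the 95th percentile 0.783% and 1.32%. The summed ratios thus need not hold for most of the 75 cells. Ctss stood at 237 and 1057 CPM (log2 2.16), Psap at 540.2 and 1357 CPM (1.33) and Ctsb at 240 and 495 CPM (1.05). Ctsk rested on 7 and 16 UMIs there, and Atp6v0d2 on 17 and 15. The other calls were Ctsc, Ctsl, Ctsz, Lamp1, Hexa, Lipa and Tpp1. In the same cells Mmp12 stood at 1.28 and 205 CPM, from 2 and 43 UMIs, and the neutrophil gene S100a8 at 163850 and 142679 CPM. Their part in the ratios was not tested.

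Ciliated cells, 119 and 134, gave 3 members higher and 4 lower of 32, where 5.12% and 3.85% of genes were called. Ctsk was lower in the fibrosis library there (55.4 to 30.9 CPM, -0.84, from 80 and 68 UMIs), as were Ctss, Npc1 and Ppt1. Npc2 was higher (702 to 1299 CPM, 0.89), with Ctsc and Gusb. Type 1 dendritic cells, 107 and 235, gave Ctsc (146 to 91.99 CPM, -0.66) and Lamp2 (78.7 to 49.4 CPM, -0.67) lower and none higher of 31, where 3.12% of genes were higher and 5.29% lower.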

How the data were processed

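The authors deposited raw counts of UMIs per gene and cell barcode as whole numbers, per the file headers, with barcodes already selected (lowest totals 1460 and 1915 UMIs). The submitters' processing notes name bcl2fastq, Cell Ranger 1.3 and mm10. The annotation and the aligner are not given in the sources used here. Cells under 200 genes or above 10% mitochondrial UMIs were left out, 1 and 0 cells by genes and 254 and 228 by mitochondrial share. Total counts were 36632591 and 38090308.

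Cells were gated on 19 marker lists (154 symbols, 3 not in the files). A marker was present at 10% or more of its 99.8th percentile over cells. The class with the highest share of its markers took the cell if at least 3 were present. Cells with a second lineage at 50% of that share, and ties, were left unassigned. Doublets were otherwise kept, and cells with the top 6% of simulated-doublet scores per library, made in the manner of scrublet, were removed in an alternative. Summed counts gave CPM with exact Poisson intervals, and ratios exact conditional intervals (scipy 1.17.1, Python 3.11.15). Clusters used scanpy 1.11.5 with 2000 variable genes, 30 components, 15 neighbours and Leiden resolution 1. The routines were tested on simulated data. No test between groups was run, since each group is 1 library, and intervals cover counting error only. Named were all members called in a comparison, the members highest in a class, and up to 4 other lysosomal genes per direction in each alveolar macrophage comparison. Positions came from GENCODE M21 on GRCm38, which holds 98.7% of the identifiers, and promoters from RefSeq. Of 36 member promoter entries, 31 had a short stretch after the start that was found in the first part of a GENCODE transcript of the gene. This checks the direction of the letters and not that the 2 annotations share a start.

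The members, lists and tests were chosen with earlier results of these data known.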

Additional observations from a re-analysis of the deposited data

How the results depend on the processing

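Each comparison was recomputed with clusters in place of the gate, 1 marker more, cells of at least 2000 UMIs, likely doublets or shared barcodes left out, other scalings, depth, folds and Mmp12 thresholds. Members highest in a macrophage class numbered 21 to 23 in the control and 26 to 29 in the fibrosis library. Mmp12-high cells counted as a macrophage class in the fibrosis library only. Members higher in Mmp12-high cells numbered 6 (2-fold) to 13 (clusters), and 1, Ctsh, was lower after thinning. Ctsl, Ctsb, Ctsk and Psap kept log2 ratios of at least 1.09 in every alternative run. In Mmp12-low cells between libraries, 1 member was higher with 1 marker more, after thinning, at 2-fold, and with markers present at 20% of their percentile (added after the data were seen), and 0 after subtracting other classes. There 1 was lower after thinning and 3 after subtraction, which also turned Ctsk to -0.79. The members' median ratio there turned to -0.047 after thinning and -0.041 after subtraction.

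In interstitial macrophages 2 were higher with clusters, 7 after thinning, 5 at 2-fold and 3 without cells at 0.1% Mmp12. In classical monocytes 0 were higher after thinning or subtraction and 1 at 2-fold. There 0 were lower with clusters, without shared barcodes, after thinning, at 2-fold or with markers at 20%, and 2 with cells weighted equally or after subtraction. In AT2 cells 0 were higher after subtraction and 1 was lower after thinning. No paired analysis was possible because each group is 1 library of 1 mouse. Depth limits Gla, Glb1, Tfe3, Tfeb and Atp6v0c, whose Mmp12-high sums held 9 to 63 UMIs.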
